A study of Homo sapiens with 18 samples.

Results

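Binding of the leukaemia fusion protein AML1-ETO was examined at 9 genes of proximal immune receptor signalling: the adaptors LAT and LAT2, the kinase SYK, the phospholipases PLCG1 and PLCG2, the ubiquitin ligase CBL, and the phosphatases UBASH3A, UBASH3B and PTPN6. The genes were taken as a fixed list of signalling genes linked to the fusion, chosen with earlier results of these data known. A peak was assigned to a gene if it overlapped the gene or a flank of 10 kb on either side. The genes are 9 of the 19974 protein-coding genes of the RefSeq table on the autosomes and X. After the 4 single-antibody peak lists were merged, 55 of 35622 regions lay at these genes.

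The data are CUT&RUN peak positions from the Kasumi-1 line, which was established from acute myeloid leukaemia with t(8;21) and here carries Flag-tagged AML1-ETO. In CUT&RUN a nuclease tethered to a bound antibody cuts out the nearby chromatin, and the freed DNA is sequenced. Cells were transduced as control or for knock-down of the microRNA miR-130a, sorted as viable GFP+ cells at 3 days, and profiled with anti-ETO, anti-Flag or mouse IgG, with 3 libraries for each of the 6 combinations. All groups share the same Flag-tagged line. The labels do not describe the constructs, the knock-down efficiency or the amount of untagged fusion, and nothing says that the 3 libraries of a group came from separate cultures.

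The deposited lists hold 14264 control anti-ETO, 23162 control anti-Flag, 22594 knockdown anti-ETO and 25961 knockdown anti-Flag peaks, with no height, score or value per library. Peaks called by both antibodies in one condition are termed dual-antibody peaks. The authors' lists of these hold 12247 peaks in control and 13712 in knockdown, further divided into 8731 shared, 3059 control-unique and 4617 knockdown-unique peaks. No spread between libraries can be computed from positions, so the differences below are described and not tested. Depth is unknown, no IgG list was used here, and marker genes of the cell line could not be checked because RNA was not measured.

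Proximal signalling genes carry the first steps after an antigen, Fc or cytokine receptor is engaged. SYK and related kinases phosphorylate membrane adaptors such as LAT and LAT2, these assemble phospholipase C gamma, and its products raise calcium and activate protein kinase C and RAS. CBL, the UBASH3 proteins and PTPN6 (SHP-1) limit the signal by ubiquitination or dephosphorylation. In myeloid cells LAT2, also called NTAL, takes the place that LAT holds in T cells, and LAT2 and the UBASH3B-CBL pair have been studied as targets or partners of AML1-ETO in leukaemia.

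AML1-ETO keeps the DNA-binding domain of RUNX1, so the promoters were searched for the RUNX hexamers TGTGGT and TGCGGT on both strands. The RefSeq promoter table (GRCh38.p14) holds windows of 300 bases, from 250 before to 50 after a gene start, for 6 of the 9 genes. These were LAT, UBASH3B, SYK, PLCG1, PLCG2 and PTPN6, all on the plus strand, with 10 windows in all because LAT and PTPN6 have 2 starts and SYK has 3. LAT2, UBASH3A and CBL had no window. The 250 bases before the start are shown for UBASH3B and PLCG2, where all 4 single-antibody lists had a peak over the start, and for SYK and PTPN6, where none had. Capitals mark a RUNX hexamer. For LAT, 30 bases around its only match are shown.
UBASH3B, chr11:122655472-122655721, plus strand: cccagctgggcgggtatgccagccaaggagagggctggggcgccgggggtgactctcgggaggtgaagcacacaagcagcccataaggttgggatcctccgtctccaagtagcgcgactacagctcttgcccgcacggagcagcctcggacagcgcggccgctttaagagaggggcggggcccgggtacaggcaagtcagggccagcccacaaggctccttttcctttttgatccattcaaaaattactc
PLCG2, chr16:81738791-81739040, plus strand: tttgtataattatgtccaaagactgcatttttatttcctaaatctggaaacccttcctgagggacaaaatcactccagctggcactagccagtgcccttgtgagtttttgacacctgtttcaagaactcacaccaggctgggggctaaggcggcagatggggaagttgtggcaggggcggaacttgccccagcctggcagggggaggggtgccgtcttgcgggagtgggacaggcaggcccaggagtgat
SYK, chr9:90801350-90801599, plus strand: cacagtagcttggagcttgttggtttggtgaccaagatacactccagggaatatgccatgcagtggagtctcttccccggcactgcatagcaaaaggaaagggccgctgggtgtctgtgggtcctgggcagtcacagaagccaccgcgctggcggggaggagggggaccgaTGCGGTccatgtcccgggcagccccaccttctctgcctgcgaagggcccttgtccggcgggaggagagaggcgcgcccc
PTPN6, chr12:6946327-6946576, plus strand: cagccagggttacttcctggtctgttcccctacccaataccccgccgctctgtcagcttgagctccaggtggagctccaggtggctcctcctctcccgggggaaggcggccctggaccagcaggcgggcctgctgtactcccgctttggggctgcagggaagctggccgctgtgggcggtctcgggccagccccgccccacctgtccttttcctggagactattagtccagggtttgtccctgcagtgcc
LAT, second start, chr16:28985037-28985066, plus strand: cgcccggcgctcACCACAgcttcctgccgc

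A hexamer was present in 2 of the 10 windows, 1 at LAT and 1 at SYK, and 19.0% of the 22132 windows of protein-coding genes held one. A control dual-antibody peak overlapped 5 of the 10 windows, those of LAT (both starts), UBASH3B, PLCG1 and PLCG2, and so did a knockdown one, against 26.7% and 24.1% of the 22132 windows. The 2 LAT windows overlap each other and were hit by the same peak, so the 10 windows are not separate units. All 5 windows with a dual-antibody peak were overlapped by a shared peak (22.1% of all windows). None was overlapped by a control-unique (5.55%) or knockdown-unique peak (2.77%). Control anti-Flag overlapped a sixth window, the second of PTPN6, and the other 3 lists 5 each, against 28.8% for control anti-Flag, 28.7% for control anti-ETO, 34.7% for knockdown anti-ETO and 21.2% for knockdown anti-Flag. The LAT match reads ACCACA on the gene strand, which is TGTGGT on the other strand, and begins 3 bases before the second annotated start. It lay inside the control and knockdown anti-ETO peaks and outside the anti-Flag peaks of both conditions. The SYK match is TGCGGT, begins 79 bases before the first start, and lay in no peak. The windows of UBASH3B, PLCG1, PLCG2 and PTPN6 held neither hexamer. Over all protein-coding genes, 23.3% of the windows with a control dual-antibody peak held a hexamer, against 17.4% of those without. TGCGGT was found in 14.1% of the former and 6.5% of the latter, and TGTGGT in 10.6% and 11.5%. Windows with a control dual-antibody peak also had a higher median GC content, 68.0% against 59.7%. Among the members' windows GC content ran from 49.0% at the third SYK start to 81.0% at PLCG1. The other windows with a dual-antibody peak had 64.0% and 72.3% at LAT, 62.3% at UBASH3B and 56.0% at PLCG2. Those without one had 66.0% and 76.7% at the first and second SYK start and 65.0% and 61.7% at PTPN6. A link of GC content to peaks was not tested.

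Of the 9 genes, 8 had a peak in every one of the 4 single-antibody lists, and SYK had none in any. Because the genes were chosen for a link to the fusion, the shares of all genes beside them are a description only. Over all protein-coding genes the share with a peak was 47.6% for control anti-ETO, 50.2% for control anti-Flag, 53.8% for knockdown anti-ETO and 42.2% for knockdown anti-Flag. The same 8 genes had dual-antibody peaks in both conditions, which 36.2% of all protein-coding genes had. Peaks were found within 10 kb in at least 1 of the 4 lists for 58.4% of protein-coding genes and for 8 members. A dual-antibody peak was found for 43.8% of protein-coding genes in control and for 39.4% in knockdown. No member had a dual-antibody peak in one condition only, a pattern seen for 7.66% of genes in control and 3.26% in knockdown. The members' median length was 43.8 kb, against 24.2 kb for all protein-coding genes.

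**Figure D1:**
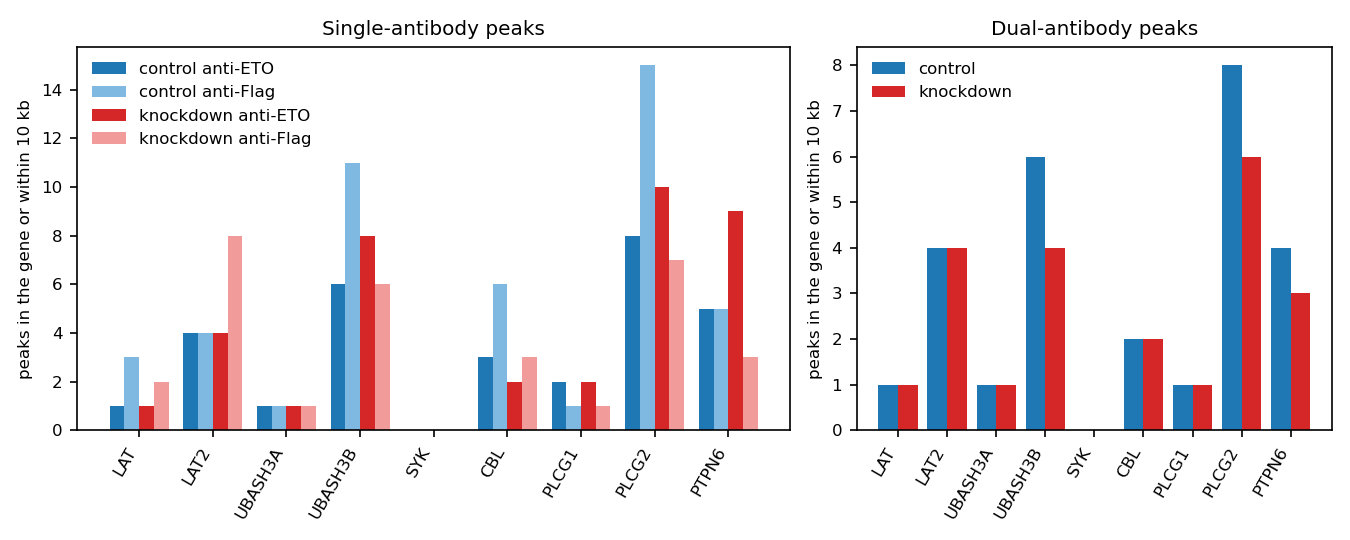
Number of peaks in each gene or within 10 kb of it, in the 4 single-antibody lists (left) and in the dual-antibody lists of control and knockdown (right). PLCG2 has the tallest bars, with 15 control anti-Flag peaks and 8 control dual-antibody peaks, and SYK has none.

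Summed over the members, anti-ETO had 30 control and 37 knockdown peaks, a ratio of knockdown to control of 1.23, against 1.58 for the whole lists. Anti-Flag had 46 control and 31 knockdown peaks, a ratio of 0.674, against 1.12 for the whole lists. Most of this difference came from the long genes PLCG2 (15 control and 7 knockdown peaks) and UBASH3B (11 and 6). CBL (6 and 3), PTPN6 (5 and 3) and LAT (3 and 2) had smaller falls. UBASH3A and PLCG1 had 1 in each condition, and LAT2 had more in knockdown (4 and 8). Dual-antibody peaks numbered 27 in control and 22 in knockdown, a ratio of 0.815 against 1.12. The whole lists are not limited to peaks at genes, so their ratios are not those of genes in general. Over all protein-coding genes, the share with an anti-Flag peak was also lower in knockdown, 42.2% against 50.2% in control. Among genes at least as long as SYK, 41.2% had a dual-antibody peak in control and 31.8% in knockdown. The anti-Flag ratio of the members stayed below 1 under all 8 alternatives, between 0.652 and 0.767. The dual-antibody ratio turned to 1.18 in the wider 50% of each list, with 11 control and 13 knockdown peaks. With each knockdown list cut by width to as many peaks as its control list, the anti-ETO ratio turned to 0.933, against 1.0 for the whole lists after the cut. The dual-antibody ratio was then 0.704 against 0.837 for the whole lists. In the deposited lists UBASH3B, PLCG2 and PTPN6 had more dual-antibody peaks in control, while LAT, LAT2, UBASH3A, CBL and PLCG1 had equal numbers in both conditions. In the wider 50%, PLCG2 alone had more in control (5 against 3), LAT2 (1 against 3) and CBL (0 against 2) had more in knockdown, and UBASH3B and PTPN6 had 1 in each. Among the 9408 protein-coding genes with any dual-antibody peak, 29.8% had more in control, 33.8% fewer in control and 36.4% as many.

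The adaptor genes had as many dual-antibody peaks in control as in knockdown. LAT, the membrane scaffold of T cell receptor signalling, is a short gene of 5982 bp on chromosome 16 (28984803 to 28990784). A single shared peak of 1750 bp (28984244 to 28985993) covered its start. Called bases in this region numbered 1203 for control anti-ETO, 1034 for knockdown anti-ETO, 1148 for control anti-Flag and 1272 for knockdown anti-Flag. Both antibodies therefore covered it to a similar length in both conditions. The neighbouring gene SPNS1 ends 38 bp before LAT, so this peak also lies over the end of SPNS1. A control anti-Flag peak of 448 bp inside SPNS1 had no other call.

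LAT2, the adaptor of B cells, mast cells and myeloid cells (chromosome 7, 74210006 to 74229834), had 4 dual-antibody peaks in each condition. All 4 were in the shared list, and 3.86% of protein-coding genes had at least as many shared peaks. The gene of 19.8 kb is not among the long members. Of these peaks, 2 ended 6237 and 3040 bp before the lower-coordinate end of the gene, and 2 were centred inside it, at 7.90 and 16.8 kb. The widest, 2128 bp (74216838 to 74218965), was covered by one anti-Flag peak in control, 2068 bp long, and in knockdown by 3 separate anti-Flag peaks of 385, 406 and 522 bp. Anti-ETO covered the same region with 1 peak in each condition, 1665 bp long in control and 1828 bp after knockdown. At the site of 16.8 kb, anti-ETO called 494 bp in control and 1062 bp in knockdown, a ratio of 2.15, and anti-Flag 487 and 576 bp. The site at 3040 bp was the narrowest shared peak of all members, 431 bp. Knockdown anti-Flag alone called 2 further regions inside LAT2, of 532 and 434 bp. LAT2 was the only member with more anti-Flag peaks in knockdown, 8 against 4. The start of the gene itself had no dual-antibody peak within 2.5 kb.

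**Figure D2:**
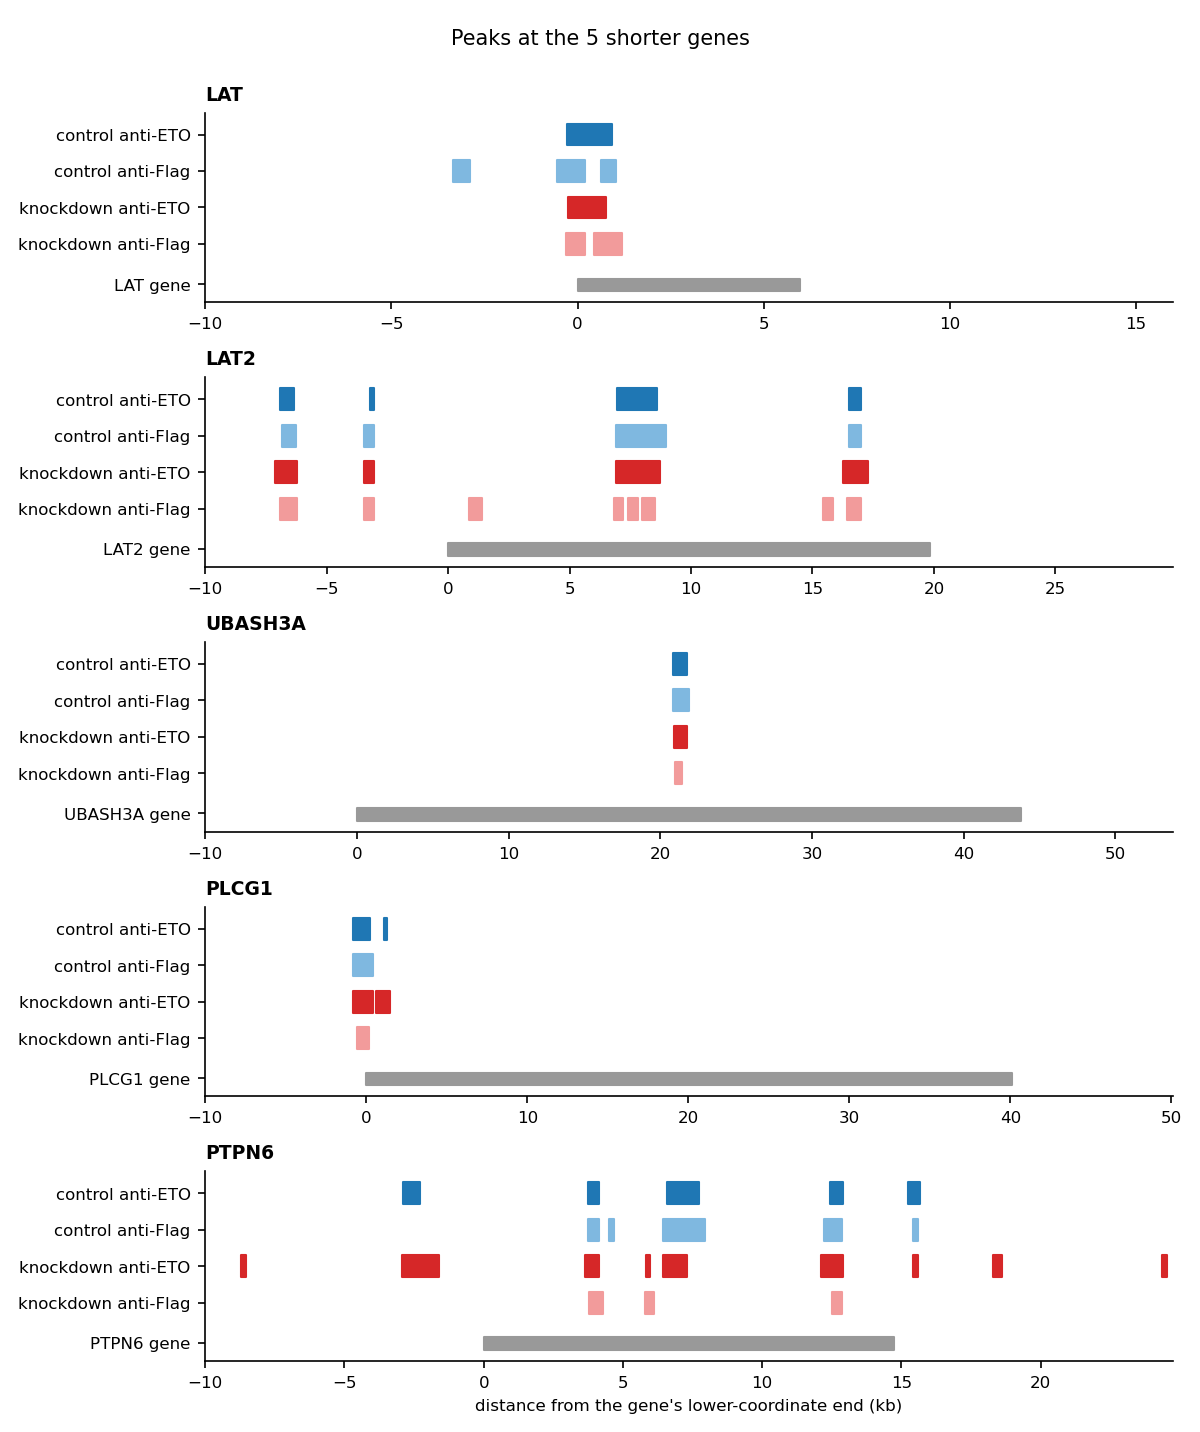
Peaks of the 4 single-antibody lists at the 5 shorter genes, drawn to scale with a thin outline; the grey bar is the gene and the x axis is the distance in kb from its lower-coordinate end. LAT and PLCG1 are covered at the start in all 4 lists, UBASH3A has a single site inside the gene, LAT2 has 4 sites present in all lists, and PTPN6 shows anti-ETO peaks outside the gene without anti-Flag peaks.

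The phosphatase genes UBASH3A and UBASH3B differed in the number and place of sites. UBASH3A (STS-2, chromosome 21, 42403902 to 42447684) had 1 region, 21.3 kb into the gene and with no peak near either end (42424714 to 42425774). Anti-ETO called 894 bp there in control and 870 bp in knockdown. Anti-Flag called 1061 bp in control and 449 bp in knockdown, a ratio of 0.423. Control and knockdown thus both had the site, with a shorter anti-Flag call after knockdown.

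UBASH3B (STS-1, a phosphatase that acts on SYK and ZAP70, chromosome 11, 122655722 to 122814473) had 11 regions over 159 kb. It had 6 dual-antibody peaks in control and 4 in knockdown, and 1.48% of protein-coding genes had at least 6 in control. A shared peak of 861 bp (122655427 to 122656287) covered the start printed above. The other shared peaks lay at 41.2, 42.2 and 61.6 kb. In the region at 61.6 kb (122716482 to 122718185) anti-Flag called 1562 bp in control and 426 bp in knockdown, a ratio of 0.273, which was the lowest of all members. Anti-ETO called 1083 and 1099 bp there. The 2 control-unique peaks lay farther into the gene, at 88.3 kb (122743755 to 122744358, 604 bp) and 101 kb (122756386 to 122757020, 635 bp). The first kept an anti-ETO call in knockdown, of 455 bp against 450 bp in control, and had no knockdown anti-Flag call. The second had no call by either antibody in knockdown. Beyond 101 kb the gene held no region in any list.

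**Figure D3:**
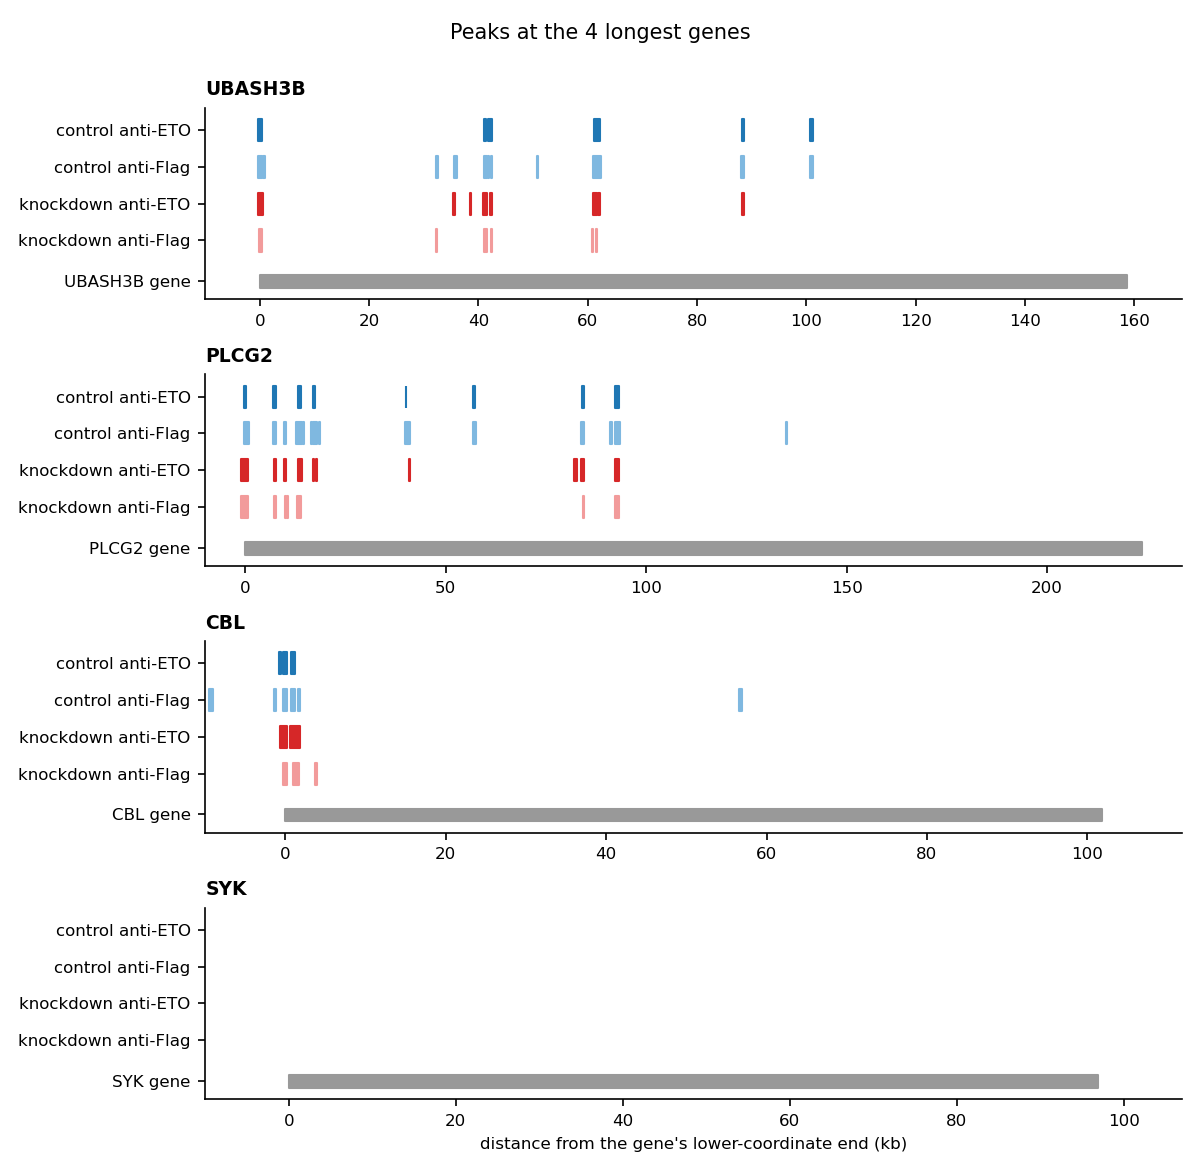
Peaks of the 4 single-antibody lists at the 4 longest genes, drawn to scale with a thin outline; the grey bar is the gene and the x axis is the distance in kb from its lower-coordinate end. In UBASH3B and PLCG2 the knockdown anti-Flag row lacks several sites of the control anti-Flag row, CBL is covered around its start, and the SYK panel is empty.

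CBL, an E3 ubiquitin ligase that tags active receptors and kinases (chromosome 11, 119206339 to 119308149), had 2 dual-antibody peaks in each condition. Both were shared and lay around the lower-coordinate end of the gene, the end itself falling in the first (119205697 to 119206542) and the second centred 1.19 kb inside (119206923 to 119208141). In the second, anti-ETO called 585 bp in control and 1219 bp in knockdown, a ratio of 2.08, and anti-Flag 813 and 732 bp. Control anti-Flag alone called 3 further regions and knockdown anti-Flag alone 1. Of the shared peaks of CBL, 1 lay across the boundary, as at LAT, UBASH3B, PLCG1 and PLCG2. These 5 genes had a dual-antibody peak within 1 kb of the start or lower-coordinate end in both conditions, and LAT2, UBASH3A, SYK and PTPN6 had none. The share of all protein-coding genes with such a peak is not given, so this count is a description only.

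PTPN6 (SHP-1, a tyrosine phosphatase that opposes receptor signalling in blood cells, chromosome 12, 6946577 to 6961316) had 10 regions around a gene of 14.7 kb. It had 4 dual-antibody peaks in control and 3 in knockdown, which combined 2 shared, 2 control-unique and 1 knockdown-unique peaks. The shared peaks lay inside, at 3.95 kb (6950198 to 6950850) and 12.5 kb (6958698 to 6959477). The widest control-unique peak of all members lay between them, at 7.20 kb (6953026 to 6954521, 1496 bp). It had 1143 bp of anti-ETO calls in control and 862 bp in knockdown, and 1496 bp of anti-Flag calls in control with no anti-Flag call in knockdown. The other control-unique peak (6961797 to 6962241) lay over another gene, LOC105369634, 481 bp after the end of PTPN6 and 1458 bp before the microRNA gene MIR200C. It too kept an anti-ETO call, of 193 bp against 445 bp in control. The knockdown-unique peak of 322 bp (6952385 to 6952706) had no call in control. At the second annotated start of PTPN6 only control anti-Flag had a peak, of 178 bp, and the first start had none.

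Anti-ETO peaks without an anti-Flag call were also found around PTPN6. A region of 1341 bp before the gene (6943645 to 6944985), over C12orf57 and the small nuclear RNA gene RNU7-1, had 632 bp of anti-ETO calls in control and 1341 bp in knockdown. Knockdown anti-ETO alone called 3 more regions, of 186, 332 and 177 bp, at 8538 bp before and 3533 and 9622 bp after the gene. Of these 4 regions, 3 overlapped other genes, C12orf57 with RNU7-1, ATN1 and EMG1, so their position does not assign them to PTPN6. With the gene body alone as the window, PTPN6 kept 3 control and 3 knockdown dual-antibody peaks. The peak at 9622 bp was the farthest inside the limit of 10 kb, and the nearest beyond it was a control anti-Flag peak of 201 bp at 10139 bp from CBL.

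The phospholipase genes showed a contrast in the number of sites. PLCG1, which is expressed in most tissues (chromosome 20, 41137543 to 41177626), had 1 shared peak over its start (41136694 to 41137977). Anti-ETO called 1034 bp there in control and 1260 bp in knockdown. Anti-Flag called 1274 bp and 712 bp, a ratio of 0.559. The peak also overlapped the antisense gene PLCG1-AS1 and the gene LOC124904903, which ends 30 bp before PLCG1. A second region, 1.06 kb inside, was called by anti-ETO alone, with 176 bp in control and 880 bp in knockdown, and its ratio of 5.00 was the highest for anti-ETO among the members.

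PLCG2, the phospholipase C gamma of B cells and myeloid cells (chromosome 16, 81739041 to 81962685), is the longest member at 224 kb and had 17 regions. It had 8 dual-antibody peaks in control and 6 in knockdown, numbers reached by 0.386% and 3.76% of protein-coding genes. The 5 shared peaks lay over the start and at 7.22, 13.4, 84.2 and 92.9 kb. The peak over the start (81737969 to 81739928, 1960 bp) was broader after knockdown in both antibodies, with 634 and 1835 bp for anti-ETO and 1311 and 1606 bp for anti-Flag. This was the largest anti-ETO ratio, 2.89, among the members' regions called in all 4 lists. At 13.4 kb (81751670 to 81753124) anti-ETO was nearly equal, 878 and 939 bp, and anti-Flag covered 1455 bp in control cells but 919 bp after knockdown. The 2 deepest shared sites, at 84.2 kb (81822869 to 81823531) and 92.9 kb (81831254 to 81832528), also had shorter anti-Flag calls after knockdown, with ratios of 0.558 and 0.846.

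PLCG2 also held 3 of the 7 control-unique peaks, at 17.4 kb (81755878 to 81756917, 1040 bp), 40.2 kb (81778985 to 81779495, 511 bp) and 57.2 kb (81795945 to 81796488, 544 bp). The first kept anti-ETO calls in knockdown, 776 bp against 344 bp in control, and no anti-Flag call. The other two had no overlapping call in knockdown, although an anti-ETO peak of 243 bp lay in the next region, at 40.8 kb. The knockdown-unique peak, at 9.95 kb (81748756 to 81749238, 483 bp), lay on a control anti-Flag peak of 539 bp and had no control anti-ETO call. Control anti-Flag alone called 5 regions of PLCG2. The first 9 regions, centred up to 18.5 kb from the start, also overlapped the gene LOC105369213, and no region lay beyond 135 kb.

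SYK, the kinase that phosphorylates LAT2 and the phospholipases (chromosome 9, 90801600 to 90898549), had no peak in any list within 10 kb, nor within 50 kb. The nearest control anti-ETO peak lay 266 kb after its end, and the nearest knockdown anti-Flag peak 498 kb after it. Among the 3460 protein-coding genes at least as long as SYK, 46.0% had no peak within 10 kb in the 4 lists, while 41.2% had a dual-antibody peak in control and 31.8% in knockdown. With depth unknown, a gene without a called peak may still be bound below the level that was called.

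Over the members, 20 of the 55 regions were called in all 4 lists (36.4%), against 24.8% of all 35622 regions. Of these 20, 5 covered a gene start or lower-coordinate end, 13 lay elsewhere inside a gene and 2 lay before LAT2. The same division is not given for all regions. Regions called by control anti-Flag alone numbered 12 (21.8%), against 10.2% of all regions. Regions called by knockdown anti-Flag alone numbered 4 (7.27%), against 22.3%. Knockdown anti-ETO alone called 5 regions (10.3% of all regions), 3 of them at PTPN6. Control anti-ETO, control anti-Flag and knockdown anti-ETO together, without knockdown anti-Flag, called 4 (6.48%), and both control lists alone 3 (1.76%). Both anti-ETO lists alone called 2 (1.63%), and control anti-Flag with knockdown anti-ETO 2 (3.75%). Of the remaining regions, 1 lacked only control anti-ETO (7.29%), 1 had both anti-Flag calls alone (3.77%) and 1 both knockdown calls alone (5.2%). None had control anti-ETO alone (1.4%), with knockdown anti-Flag alone (0.0393%), with both knockdown lists (0.752%) or with both anti-Flag lists (0.267%). In all, 43 of the 55 regions had a control anti-Flag call (78.2%, against 58.3% of all regions) and 27 had a knockdown anti-Flag call (49.1%, against 64.4%). For anti-ETO the shares were 52.7% in control and 63.6% in knockdown, against 37.1% and 60.3%. The regions of one gene share its surroundings, so they are not independent: PLCG2 held 17, UBASH3B 11 and PTPN6 10.

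The members held 20 shared, 7 control-unique and 2 knockdown-unique peaks. Of all protein-coding genes, 35.1% had a shared, 16.9% a control-unique and 18.4% a knockdown-unique peak. Of the 9 members, 8, 3 and 2 had one. All 7 control-unique peaks lacked a knockdown anti-Flag call: 4 kept an anti-ETO call, as 74.7% of all control-unique peaks did without anti-Flag, and 3 had neither, as 20.2% did. Of all control-unique peaks, 3.17% had a knockdown anti-Flag call alone and 1.99% calls by both antibodies. Of the 2 knockdown-unique peaks, 1 had a control anti-Flag call only (55.1% of all such peaks) and 1 had no control call (38.1%). None had a control anti-ETO call alone (5.83%) or both calls (0.996%). At these genes the control-unique peaks had a median width of 604 bp, against 470 bp for the whole list. The number of knockdown-unique peaks rests on how the lists are compared, at 0 in the wider 50% of each list and 6 when an overlap of 50% of both peaks was required.

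At sites called by the same antibody in both conditions, the called length moved in opposite directions for the antibodies. For anti-ETO, 19 of 26 regions were wider in knockdown, with a median ratio of knockdown to control of 1.24. Over the 11992 such regions of the series, 76.0% were wider, 23.0% narrower, and the median ratio was 1.21. For anti-Flag, 16 of 22 regions were narrower in knockdown, with a median ratio of 0.786. Over 12870 such regions of the series, 60.7% were narrower, 38.9% wider, and the median ratio was 0.933. For anti-ETO the members thus stood close to the whole list. In the 20 regions called in all 4 lists, anti-Flag was narrower at 14, with a median ratio of 0.872, close to the 0.883 of all 8835 such regions. The anti-Flag regions wider after knockdown lay at LAT, LAT2, UBASH3B, PLCG2 and PTPN6, with ratios between 1.03 and 1.23.

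**Figure D4:**
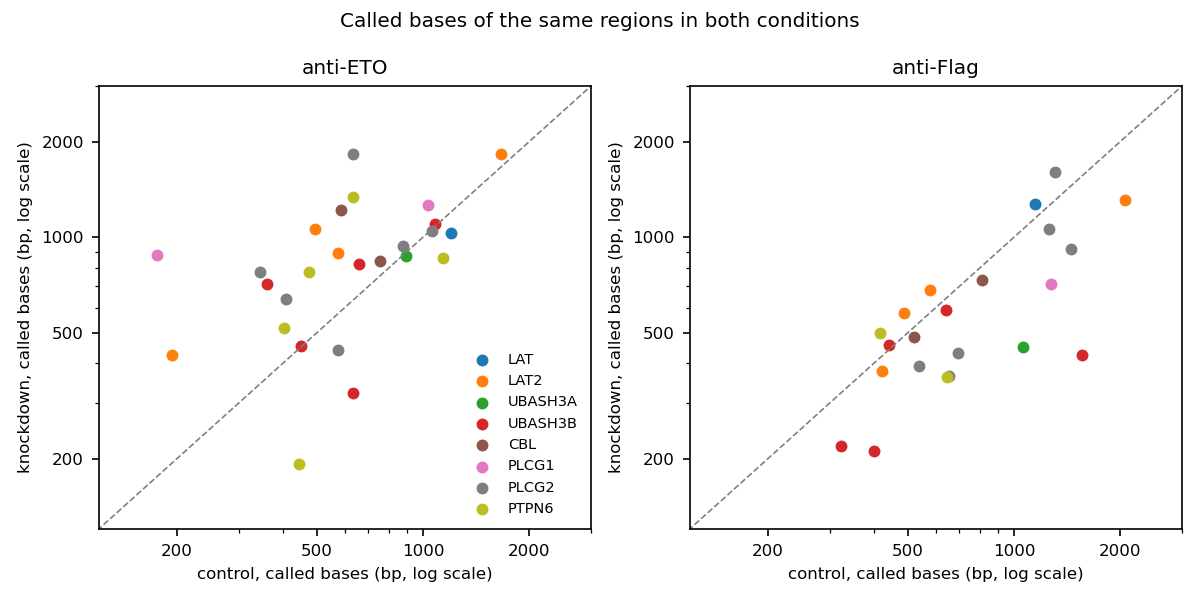
Called bases in control (x axis) and knockdown (y axis), both in bp on a log scale, for each region of the members called in both conditions by anti-ETO (left, 26 regions) or anti-Flag (right, 22 regions); colours give the gene and the dashed line marks equal length. Most anti-ETO points lie above the line (19 regions) and most anti-Flag points below it (16 regions).

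Likeness between genes was taken as the same presence or absence of a peak over 7 lists, the 4 single-antibody lists and the 3 lists that divide the dual-antibody peaks. LAT, LAT2, UBASH3A, CBL and PLCG1 had one pattern, with peaks in the 4 single-antibody lists and the shared list only. It was found in 16.1% of the other protein-coding genes, among the pathway genes in CARD9, CD33 and CRKL. UBASH3B added a control-unique peak, as did 4.81% of other genes, CBLC, FES and GAB2 among them. PLCG2 and PTPN6 had peaks in all 7 lists, as did 3.28% of other genes, including FCGR2A, GRB2 and PIK3CD. SYK shared the absence from all 7 lists with 41.6% of other genes, including the kinases BMX and BTK and the adaptor BLNK. Where more pathway genes matched, the first 3 by alphabet are named.

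The other genes of the pathway were taken from a list of 84 genes in 6 roles, all found in the gene table. Of these, 55 (65.5%) had a dual-antibody peak in control and 51 (60.7%) in knockdown, against 43.8% and 39.4% of all protein-coding genes. Their median length, 75.3 kb, was above the 24.2 kb of all genes. Peaks in both conditions were found for 47 genes, in control alone for 8, in knockdown alone for 4 and in neither for 25. By role, exchange factors and effectors had a peak most often, 15 of 18 genes in each condition. Adaptors followed with 19 of 24 in control and 15 in knockdown, and phosphatases with 6 of 9 in each. Kinases had 8 of 15 in control and 6 in knockdown, receptor chains 6 and 7 of 14, and ubiquitin ligases 1 and 2 of 4. The roles also differed in median gene length. It was 108305 bp for exchange factors and effectors, 63931 bp for adaptors and 98760 bp for phosphatases. For kinases it was 55713 bp, for receptor chains 30176 bp and for ubiquitin ligases 157598 bp. A link of length to these counts was not tested.

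Genes with a control dual-antibody peak alone included TEC, a kinase of the BTK family, with 2 peaks of 1608 bp in all. SKAP2, an adaptor of integrin signalling, had 1 of 1121 bp, BLK, a SRC-family kinase, 1 of 886 bp, and PAG1, which anchors the inhibitory kinase CSK, 2 of 820 bp in all. INPP5D (SHIP-1), a lipid phosphatase that limits signalling in blood cells, had 1 of 432 bp. GRAP had 1 of 593 bp at the edge of its window. These 6 genes were the widest by summed peak width of the 8 with a control dual-antibody peak alone. Within 10 kb all 6 had an anti-ETO peak in knockdown and no knockdown anti-Flag peak. Of the other 2, SOS1 had the same, with 2 anti-ETO and 0 anti-Flag peaks in knockdown. The adaptor DOK2 had the reverse, 0 anti-ETO and 1 anti-Flag peak in knockdown. Of all control-unique peaks, 74.7% had a knockdown anti-ETO call without an anti-Flag call. GRAP had no control anti-Flag peak within 10 kb. Genes with a knockdown dual-antibody peak alone were FCER1G, the signalling chain of Fc receptors, with 862 bp, the ubiquitin ligase ITCH with 811 bp, PTPN11 (SHP-2) with 703 bp and VAV2, an exchange factor, with 352 bp.

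**Figure D5:**
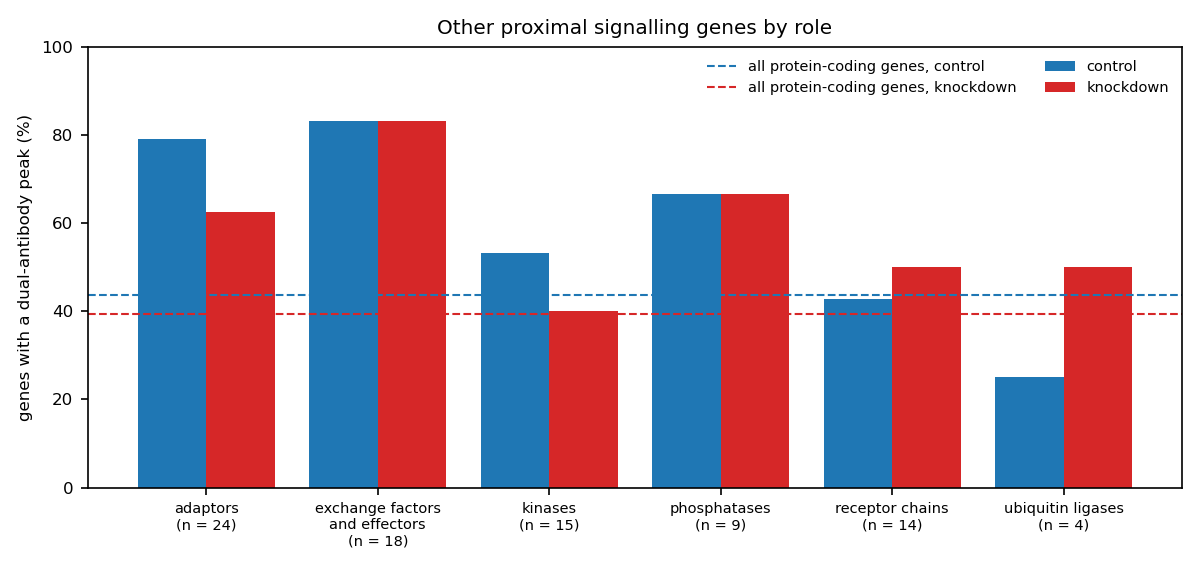
Percent of the other proximal signalling genes with a dual-antibody peak in the gene or within 10 kb, by role, in control and knockdown; dashed lines give the percent of all protein-coding genes. Adaptors, exchange factors and effectors, and phosphatases lie above both lines, while receptor chains in control (42.9%) and ubiquitin ligases in control (25.0%) lie below the control line.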

How the data were processed

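The 9 deposited files are interval lists with chromosome, start and end and no other value. Positions are the only unit, per the deposited files: 4 lists hold 1 antibody in 1 condition, and the others were derived from them. The submitters' processing notes name fastp 0.19.5, Bowtie2 2.3.5, MACS2 2.2.5 and HOMER 4.8 and the builds hg38 and sacCer3, with no role or order. The peak threshold, the use of IgG and the pooling of replicates are not given in the sources used here, and a longer list can by itself create more peaks at a gene.

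Starts were counted from 1. Genes came from RefSeq (GRCh38.p14), and overlap meant at least 1 bp. Overlapping peaks of the 4 single-antibody lists were merged into regions, and called bases are the bases of a region covered by a list. Exon annotation was not used here. Python 3.11.15, numpy 2.4.6, pandas 2.3.3 and matplotlib 3.10.9 were used. On simulated data of 2000 intervals per list, 1200 of 1200 planted overlaps were recovered.

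The members and lists were chosen with earlier results of these data known. Named were all 9 members, every region with a dual-antibody peak (the widest 8 of a gene), and of the pathway list the genes with such a peak in one condition only (at most 6 each way by summed width). For shortened lists the dual-antibody intervals were rebuilt with an overlap of at least 100 bp; on the full lists this gave 12234 deposited intervals for control (of 12247) and 13699 for knockdown (of 13712). No test was run because no value per library exists. Alternatives changed the window, the peak-to-gene rule, list length and overlap.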

Additional observations from a re-analysis of the deposited data

How the results depend on the processing

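The counts of members with a peak, 8 of 9 in each single-antibody list, held under all 8 alternatives tried: windows of 0, 2 and 50 kb, peak centres, nearest gene, the wider 50% of each list, and both ways of shortening lists. The dual-antibody counts were 8 in each condition, with 7 in control for the wider 50%, where CBL had no control peak. With the wider 50% of each list, 10 shared and 0 knockdown-unique peaks lay at the members. A window of 50 kb gave 13 control-unique and 9 knockdown-unique peaks, and an overlap of 50% of both peaks gave 11 and 6. Shortening the knockdown lists to the control lengths, or all lists to the shortest, by width left 1 knockdown-unique peak each. In the first of these UBASH3B had 2 knockdown and 6 control dual-antibody peaks. The ratio of knockdown to control peaks at the members, tried under alternatives chosen after seeing the data, turned from 0.815 to 1.18 for dual-antibody peaks in the wider 50%. For anti-ETO it turned from 1.23 to 0.933 under both ways of shortening, which set the ratio of the whole lists to 1.0. With TGTGGT alone, 1 promoter window had a match. The pathway counts and the starts within 2.5 kb stayed within 1.5 times of the reported values. The pathway counts came near that limit in the wider 50% of each list. They fell there from 55 to 37 genes in control and from 51 to 35 in knockdown. The share of all protein-coding genes under that setting is not given, so the excess over all genes was not checked there. No paired analysis was possible because the lists carry no replicate. Leaving out replicates was not possible for the same reason, and depth behind a call is unknown.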

Other observations

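Knockdown-unique peaks were found at 22 of the 84 pathway genes, against 18.4% of all protein-coding genes. The pathway genes are longer, with a median of 75.3 kb against 24.2 kb. The genes named here were chosen after their values were seen, and the share of all genes with as many peaks is not given for them. Of the 46 knockdown-unique peaks at the pathway genes, GRB2, the adaptor that links receptors to RAS, held 9. VAV1, an exchange factor of blood cells, held 8. GRB2 had 7 dual-antibody peaks in control and 15 in knockdown, and 41 anti-Flag peaks in knockdown against 19 in control. VAV1 had 7 and 15 dual-antibody peaks, and 38 anti-Flag peaks against 28. Peak density in the stretches around GRB2 and VAV1 is not given, so these counts cannot be told apart from those of their surroundings. The adaptor DOK3 and the SRC-family kinase FGR had 3 knockdown-unique peaks each and no control-unique peak. SH2B3 also had 3, with 3 control-unique peaks, and SH3BP2 had 3, with 1.

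The SRC-family kinase LYN, the kinases BTK and BMX and the adaptors BLNK, FYB1 and LAX1 were among the genes with no peak in any single-antibody list, as SYK had none. In all, 13 of the 84 pathway genes lacked a peak in every single-antibody list. Of all protein-coding genes, 58.4% had a peak within 10 kb in any of these lists. Genes without a peak were thus rarer in the pathway list, whose genes are also longer. CSK, which restrains SRC-family kinases, had 6 control and 5 knockdown dual-antibody peaks, none of them unique to a condition. TYROBP, the signalling chain of activating myeloid receptors, is a gene of 3893 bp and had 5 control and 6 knockdown dual-antibody peaks in the gene or within 10 kb.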
